A study of Homo sapiens with 27 samples.

Results

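ST8SIA1, F2RL2 and C10orf11 are 3 of the 55882 gene symbols counted by RNA-Seq in U2OS cells, a human osteosarcoma line. They were chosen by their measured fall in cells depleted of MMP-2 with the shRNA MMP2sh1, where they ranked among the genes that fell most relative to control. The difference between MMP2sh1 and control is therefore a description of how these genes were selected, and no p-value is given for it. The MMP2sh2 libraries and the changes with culture stage within each line were not used in the choice, and those were tested. The MMP2sh2 comparison was made with the same control libraries that helped to choose the genes. The stage tests within control and within MMP2sh1 also used libraries that helped to choose them, so they are not independent of the choice. Whether the stage changes of MMP2sh1 differed from those of control was not tested.

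The libraries came from stable U2OS lines transduced with the pLKO.1 lentiviral vector and selected with puromycin. The control line, labelled WT, carried the empty vector, while MMP2sh1 and MMP2sh2 each carried a different hairpin against MMP2, which encodes a secreted matrix protease also found in the nucleus. Poly(A) RNA was collected from subconfluent cells at day −2, confluent cells at day 0 and overconfluent cells at day +2, with 3 libraries in each of the 9 groups of line and day. Each hairpin is represented by 1 transduced line, so a hairpin and its line cannot be told apart. The 27 libraries held 33580129 to 59374327 counts on genes, with a median of 40075178.

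ST8SIA1 encodes GD3 synthase, the sialyltransferase that adds a further sialic acid to the ganglioside GM3 and so opens the b-series of gangliosides, glycolipids of the outer cell membrane. GD3 and its product GD2 are abundant in neuroectodermal tissue and are displayed by several tumour types, osteosarcoma among them. F2RL2 encodes PAR3, a member of the protease-activated receptor family, G protein-coupled receptors that are switched on when thrombin or a related protease cuts their extracellular end. PAR3 is best known as a thrombin receptor that assists other members of the family. C10orf11, now named LRMDA, encodes a leucine-rich repeat protein needed for melanocyte differentiation, and its loss causes a form of oculocutaneous albinism.

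In the GENCODE annotation on GRCh37, the build the authors name hg19, ST8SIA1 lies on the minus strand at chr12:22216707-22589975 and its canonical transcript has 5 exons. F2RL2 lies on the minus strand at chr5:75911307-75919238 and has 2 exons in its canonical transcript. C10orf11 lies on the plus strand at chr10:77191382-78319926, a span of 1128545 bases, and has 7 canonical exons. RefSeq lists 1 promoter each for ST8SIA1 and F2RL2 and 2 for C10orf11. The 250 bases before each start are shown because the 3 genes rose together from day −2 to day 0, though not after it. They let the reader compare base composition at the starts. They were copied from the RefSeq table of GRCh38.p14, and each matched its GRCh37 chromosome at 1 place, at chr12:22487642-22487891 for ST8SIA1, chr5:75919229-75919478 for F2RL2, chr10:77407017-77407266 for the first C10orf11 start and chr10:77542269-77542518 for the other. Each is written 5′ to 3′ in the direction of transcription, with CCAAT and TGAGTCA, the core of an AP-1 site, in capitals.
ST8SIA1: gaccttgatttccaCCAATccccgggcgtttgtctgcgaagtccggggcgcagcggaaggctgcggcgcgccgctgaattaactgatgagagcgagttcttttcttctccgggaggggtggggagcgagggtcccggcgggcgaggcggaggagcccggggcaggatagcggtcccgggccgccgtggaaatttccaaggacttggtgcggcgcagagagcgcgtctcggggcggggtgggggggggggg
F2RL2: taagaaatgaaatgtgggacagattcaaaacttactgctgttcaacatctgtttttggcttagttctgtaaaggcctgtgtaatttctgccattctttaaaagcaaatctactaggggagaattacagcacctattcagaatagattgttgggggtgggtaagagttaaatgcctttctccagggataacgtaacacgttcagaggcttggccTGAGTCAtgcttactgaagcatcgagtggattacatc
C10orf11, promoter 1: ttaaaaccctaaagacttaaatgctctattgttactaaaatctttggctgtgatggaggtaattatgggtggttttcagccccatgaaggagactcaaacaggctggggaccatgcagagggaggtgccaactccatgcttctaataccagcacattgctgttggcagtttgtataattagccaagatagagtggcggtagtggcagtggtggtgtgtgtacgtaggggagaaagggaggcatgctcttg
C10orf11, promoter 2: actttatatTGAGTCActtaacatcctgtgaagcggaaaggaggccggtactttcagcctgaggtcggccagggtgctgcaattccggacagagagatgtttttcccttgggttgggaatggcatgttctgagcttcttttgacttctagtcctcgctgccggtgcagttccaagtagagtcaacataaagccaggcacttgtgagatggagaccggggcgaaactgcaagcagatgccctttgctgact

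The ST8SIA1 promoter was rich in G and C (69.2%) with 28 CpG dinucleotides, while the F2RL2 promoter had 40.8% and 3 CpG. The C10orf11 promoters had 46.8% and 51.2%, with 2 and 8 CpG. Both C10orf11 windows lie inside the annotated gene, after the start of its canonical transcript at chr10:77191382. Which start these cells used was not tested. Across the 35116 RefSeq promoters of the same length, the median was 58% and 11 CpG. The letters of a TATA box (TATAAA), of an NF-Y site (CCAAT), of an Sp1 site (GGGCGG) and of the AP-1 core (TGAGTCA) were searched on both strands, and no matches overlapped. TGAGTCA was added to the search after the sequences had been read. It occurred 37 bases before the start of F2RL2 and 241 bases before the start of promoter 2 of C10orf11, and 4.2% of all promoters held it. ST8SIA1 held 1 CCAAT and 1 GGGCGG, which 32% and 42.6% of all promoters held. Promoter 2 of C10orf11 held 1 TATAAA, held by 10.7%. It lay on the strand not printed, further from the start than the TGAGTCA of that promoter. These matches describe the letters of these windows only.

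The targeted gene followed the labels. MMP2 mRNA in MMP2sh1 cells was 17.3%, 18.2% and 19.8% of control at days −2, 0 and +2, and in MMP2sh2 cells it was 62.6%, 48.2% and 56.6%. Of the 9 osteoblast-lineage markers checked, SPARC, COL1A1 and RUNX2 were abundant (mean over all libraries 1453, 1237 and 46.4 CPM, counts scaled to library size). COL1A2, SP7 and BGLAP stayed under 1 CPM and IBSP had no count in any library. Against control, 5 or 6 of the markers were tested with edgeR. In MMP2sh1, 0, 1 and 0 were called lower at days −2, 0 and +2 and 2, 1 and 3 higher. They included SPARC (higher at days 0 and +2) and RUNX2 (lower at day 0). In MMP2sh2, 1, 2 and 0 were lower and 1, 0 and 0 higher. Of all genes, 6.14%, 8.58% and 7.11% were called lower in MMP2sh1 and 5.42%, 8.26% and 7.68% higher. In MMP2sh2 it was 6.33%, 5.81% and 3.43% lower and 4.71%, 7.07% and 2.89% higher. Summed over each list, blood markers (4 genes) stayed between 0.0235 and 1.55 CPM, endothelial markers (2 genes) between 1.62 and 5.01, platelet markers (4 genes) between 1.02 and 3.26, and epithelial markers (4 genes) between 7.16 and 18.9, with overlapping ranges in the 3 lines. These ranges pool the 3 days. KRT14 was called lower than control by edgeR at day 0 in both hairpin lines. Its means at that day were 5.35 CPM in control, 3.29 in MMP2sh1 and 2.57 in MMP2sh2. No other epithelial marker was called against control. The part of these low markers, and of the osteoblast-lineage differences, in the results below was not tested.

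In MMP2sh1 cells all 3 genes were below control at each day, and no MMP2sh1 library reached the level of a control library of the same day. The order was taken among the 296 genes past edgeR's threshold on the lower side at all 3 days, a condition that the choice of these genes already met and that supports nothing about them. In it C10orf11 had rank 3 by mean log2 fold change (−1.59), ST8SIA1 rank 5 (−1.48) and F2RL2 rank 8 (−1.27). MMP2 itself came at the top with −2.45, followed by LPCAT2 with −1.74. The genes between and just after them in this order were COL3A1 (−1.54), CCL26 (−1.37), LINC01029 (−1.37) and ZNF718 (−1.23). Of all genes tested, 6.14%, 8.58% and 7.11% were called lower in MMP2sh1 at days −2, 0 and +2, and nothing is read from these shares about the 3 genes, since the fall chose them. Levels below are CPM scaled with TMM factors, and errors are the SD of 3 libraries. In bulk RNA, fewer cells that make a transcript and less of it per cell cannot be told apart.

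**Figure D1:**
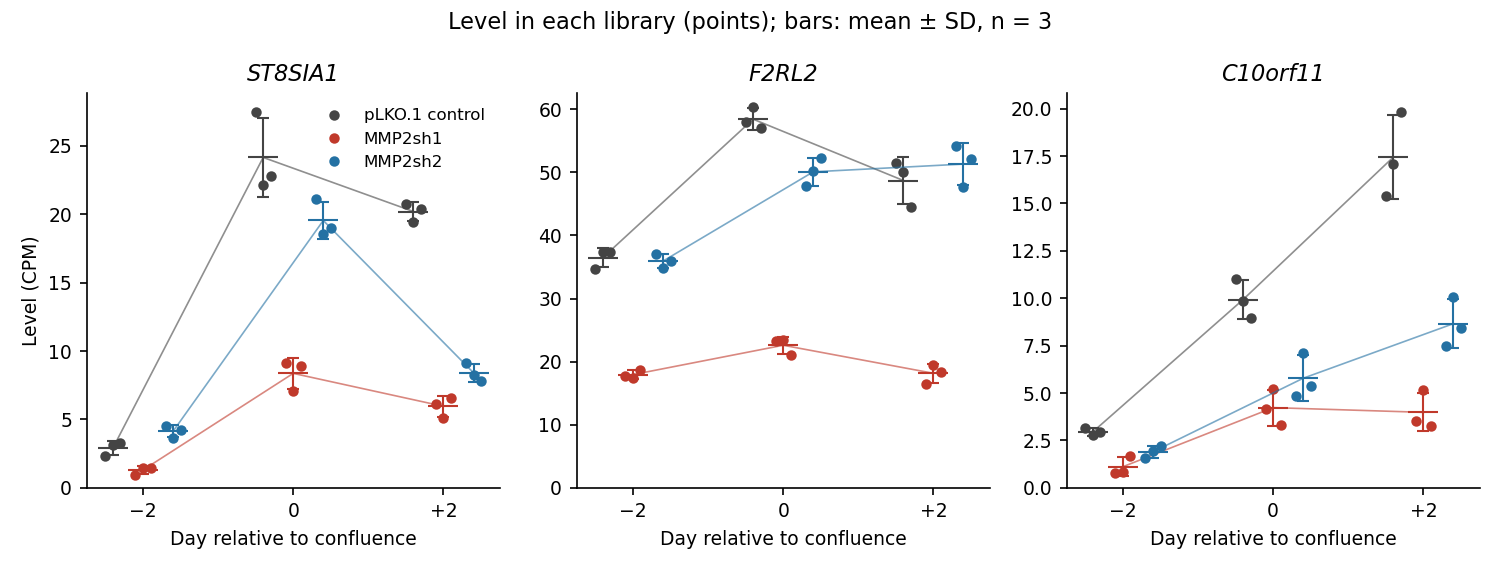
Level of ST8SIA1, F2RL2 and C10orf11 (y axis, CPM, starting at 0) in each of the 27 libraries by day of culture (x axis), with the mean and SD of the 3 libraries of each line and day. ST8SIA1 and C10orf11 rose steeply from day −2 to day 0 in every line. The mean of MMP2sh1 was lowest at each day for all 3 genes. C10orf11 libraries of MMP2sh1 and MMP2sh2 overlapped at days −2 and 0.

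ST8SIA1, the GD3 synthase gene, was scarce in subconfluent cells and rose at confluence. In control cells the 3 libraries held 2.36, 3.12 and 3.28 CPM at day −2, 27.5, 22.1 and 22.8 at day 0, and 20.8, 19.4 and 20.4 at day +2. The MMP2sh1 libraries held 0.971, 1.48 and 1.46 CPM at day −2, 9.11, 7.07 and 8.93 at day 0, and 6.15, 5.14 and 6.60 at day +2. MMP2sh1 therefore rose at confluence too, but its highest library (9.11) lay below the lowest control library of days 0 and +2 (19.4). The MMP2sh2 libraries held 4.53, 3.66 and 4.21 CPM at day −2, 21.1, 18.6 and 19.0 at day 0, and 9.15, 8.25 and 7.84 at day +2. MMP2sh2 was therefore above every control library at day −2 and below every one at days 0 and +2. The mean of MMP2sh1 was 44.7%, 34.6% and 29.5% of control at days −2, 0 and +2, with log2 fold changes of −1.15 (SE 0.27), −1.53 (SE 0.11) and −1.76 (SE 0.11). The day −2 values rest on as few as 36 counts in a library, whereas the most abundant library held 1274.

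F2RL2, the PAR3 gene, was the most abundant of the 3 in CPM and varied least with stage. The control libraries held 34.7, 37.4 and 37.4 CPM at day −2, 58.0, 60.3 and 57.0 at day 0, and 51.5, 50.1 and 44.5 at day +2. The MMP2sh1 libraries held 17.8, 17.4 and 18.7 CPM at day −2, 23.3, 23.5 and 21.0 at day 0, and 16.5, 19.5 and 18.4 at day +2. All 9 MMP2sh1 libraries lay below all 18 others. The MMP2sh2 libraries held 37.1, 34.8 and 35.9 CPM at day −2, 47.8, 50.2 and 52.3 at day 0, and 54.2, 47.6 and 52.2 at day +2. These overlapped control at days −2 and +2, while at day 0 each was below each control library. MMP2sh1 was at 49.2%, 38.7% and 37.3% of control, with log2 fold changes of −1.03 (SE 0.08), −1.37 (SE 0.07) and −1.42 (SE 0.08).

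C10orf11, the melanocyte differentiation gene, rose at each step in control cells. The control libraries held 3.17, 2.77 and 2.93 CPM at day −2, 11.01, 9.85 and 8.93 at day 0, and 15.4, 17.1 and 19.8 at day +2. The MMP2sh1 libraries held 0.783, 0.858 and 1.70 CPM at day −2, 4.14, 5.23 and 3.32 at day 0, and 3.55, 5.14 and 3.26 at day +2. The spread among these was wide, and the third library of day −2 held about the level of the MMP2sh2 libraries of that day. Those held 1.56, 1.95 and 2.19 CPM at day −2, 4.83, 7.13 and 5.38 at day 0, and 7.50, 10.1 and 8.41 at day +2. Each MMP2sh2 library was below each control library of its day. MMP2sh1 was at 37.7%, 42.6% and 22.8% of control, with log2 fold changes of −1.41 (SE 0.29), −1.23 (SE 0.15) and −2.13 (SE 0.15), from 29 to 250 counts per library. Without MMP2sh1 replicate 3, the day −2 value was −1.85, and the difference between MMP2sh1 and MMP2sh2 at that day changed from −0.75 to −1.19.

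Ordered by mean level, the 9 groups did not fall into the same sequence for the 3 genes. ST8SIA1 was highest in control cells at day 0 (24.2 ± 2.92 CPM, n = 3), followed by control at day +2 (20.2 ± 0.694) and MMP2sh2 at day 0 (19.6 ± 1.36), and the ranges of these last groups overlapped. MMP2sh2 at day +2 (8.41 ± 0.669) and MMP2sh1 at day 0 (8.37 ± 1.13) came next and overlapped, and no other neighbours in the ST8SIA1 order overlapped, down to MMP2sh1 at day −2 (1.30 ± 0.288). F2RL2 was also highest in control at day 0 (58.4 ± 1.70), above MMP2sh2 at day +2 (51.3 ± 3.36), MMP2sh2 at day 0 (50.1 ± 2.25) and control at day +2 (48.7 ± 3.72), each of which overlapped its neighbour. Control and MMP2sh2 at day −2 overlapped at 36.5 ± 1.56 and 35.9 ± 1.15. MMP2sh1 took the bottom of the F2RL2 order, with 22.6 ± 1.35 at day 0 and with overlapping levels at day +2 (18.2 ± 1.51) and day −2 (17.9 ± 0.671). C10orf11 was highest in control at day +2 (17.4 ± 2.23), without overlap with the next group. Control at day 0 (9.93 ± 1.04) overlapped MMP2sh2 at day +2 (8.66 ± 1.30). The neighbours MMP2sh2 at day 0 (5.78 ± 1.20), MMP2sh1 at day 0 (4.23 ± 0.956) and MMP2sh1 at day +2 (3.98 ± 1.01) overlapped in turn. Below control at day −2 (2.96 ± 0.203), MMP2sh2 (1.90 ± 0.320) and MMP2sh1 (1.11 ± 0.511) of that day also overlapped.

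To determine whether the second hairpin followed the first, MMP2sh2 was compared with control at each day. At day −2 none of the 3 genes was called by edgeR's quasi-likelihood test, where 6.33% of all genes tested were called lower and 4.71% higher. ST8SIA1 had a log2 fold change of 0.49 (95% interval 0.08 to 0.90, adjusted p = 0.12), C10orf11 of −0.66 (−1.14 to −0.18, adjusted p = 0.068) and F2RL2 of −0.04 (−0.19 to 0.11, adjusted p = 0.79). At day 0 all 3 were called lower, beside 5.81% of all genes. C10orf11 fell by 0.79 on the log2 scale (SE 0.14, adjusted p = 0.00016), ST8SIA1 by 0.31 (SE 0.09, adjusted p = 0.017) and F2RL2 by 0.23 (SE 0.06, adjusted p = 0.0081). At day +2 ST8SIA1 fell by 1.26 (SE 0.11, adjusted p = 6.8e-12) and C10orf11 by 1.01 (SE 0.12, adjusted p = 3.3e-08), beside 3.43% of all genes called lower. F2RL2 was at 105% of control at day +2, with a log2 fold change of 0.08 (−0.06 to 0.22, adjusted p = 0.62). F2RL2 in MMP2sh2 thus stood at 98.5%, 85.7% and 105% of control over the 3 days, against 64.3%, 58.2% and 49.6% for C10orf11 and 142%, 80.9% and 41.6% for ST8SIA1.

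2 of these calls rested on single libraries. ST8SIA1 at day 0 was no longer called without control replicate 1 (−0.21, adjusted p = 0.21), MMP2sh2 replicate 2 (−0.28, adjusted p = 0.094) or MMP2sh2 replicate 3 (−0.29, adjusted p = 0.055), and F2RL2 at day 0 was not called without MMP2sh2 replicate 1 (−0.20, adjusted p = 0.069). ST8SIA1 and C10orf11 at day +2 and C10orf11 at day 0 were called with each library left out. The direct difference between the hairpin lines, given as a description, was largest for ST8SIA1 at day −2 (MMP2sh1 against MMP2sh2, log2 fold change −1.64, SE 0.25) and smallest at day +2 (−0.50, SE 0.14). For F2RL2 it was −0.99, −1.14 and −1.50 at days −2, 0 and +2. For C10orf11 it was −0.75, −0.44 and −1.13. The MMP2 transcript itself was lower in MMP2sh1 than in MMP2sh2 at each day, with log2 fold changes of −1.84, −1.41 and −1.52, and the part of this unequal depletion in these differences was not tested.

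**Figure D2:**
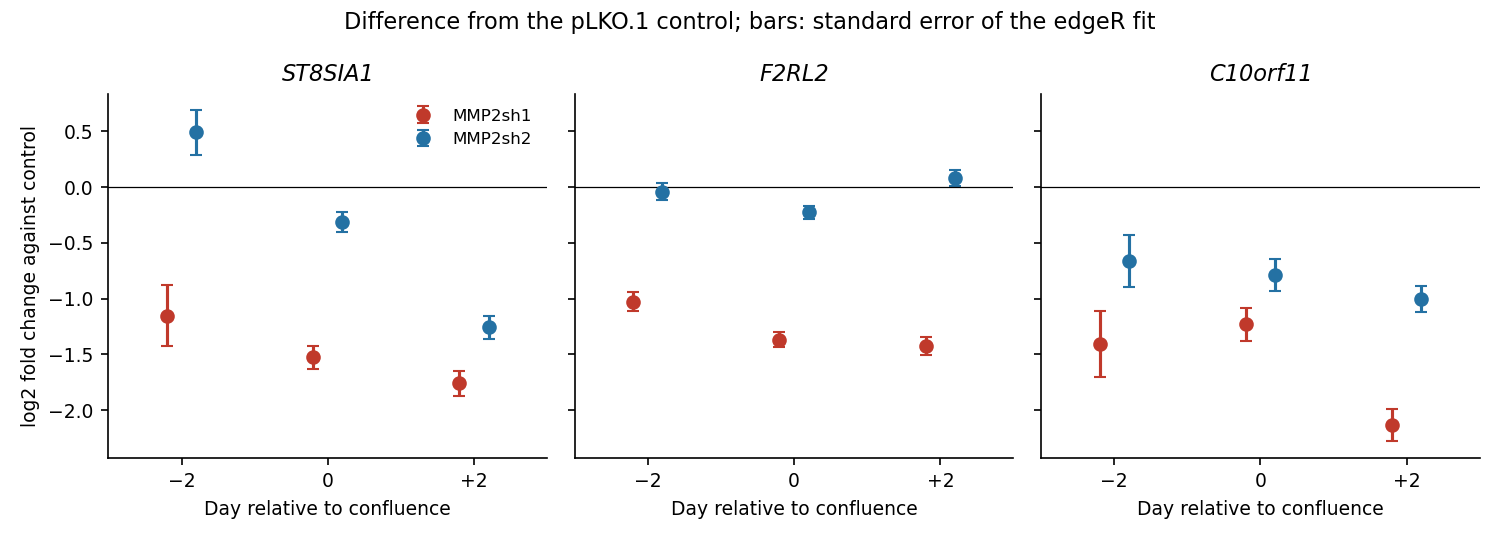
Log2 fold change against the pLKO.1 control (y axis) for MMP2sh1 and MMP2sh2 at each day (x axis), with the standard error of the edgeR fit. MMP2sh2 moved from 0.49 to −1.26 for ST8SIA1, stayed between −0.66 and −1.01 for C10orf11, and stayed between −0.23 and 0.08 for F2RL2. MMP2sh1 values are a description, since they chose the genes.

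Culture stage changed the 3 genes within each line. From day −2 to day 0 all 3 were called higher in all 3 lines, beside 16.4%, 15% and 13.9% of all genes in control, MMP2sh1 and MMP2sh2. ST8SIA1 rose 8.41-fold in control (log2 fold change 3.07, SE 0.13, adjusted p = 2e-16), 6.38-fold in MMP2sh1 (2.67, SE 0.19, adjusted p = 1.7e-09) and 4.79-fold in MMP2sh2 (2.26, SE 0.12, adjusted p = 1.1e-12). C10orf11 rose 3.35-fold, 3.801-fold and 3.08-fold in the same order (adjusted p at most 1.6e-05). F2RL2 rose 1.60-fold, 1.26-fold and 1.41-fold (adjusted p at most 0.0046). The rise at confluence was thus measured in MMP2sh1 cells as well, from a lower starting level.

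From confluence to overconfluence the genes parted. In this step 41.4%, 46% and 45.5% of all genes were called in either direction in control, MMP2sh1 and MMP2sh2. ST8SIA1 fell in each line, by 0.25 in control (SE 0.09, adjusted p = 0.022), 0.49 in MMP2sh1 (SE 0.14, adjusted p = 0.0066) and 1.21 in MMP2sh2 (SE 0.11, adjusted p = 1.4e-10) on the log2 scale. The control call was lost without control day 0 replicate 1 (−0.15, adjusted p = 0.24) or day +2 replicate 2 (−0.22, adjusted p = 0.093). F2RL2 fell by 0.26 in control (adjusted p = 0.0012) and by 0.32 in MMP2sh1 (adjusted p = 0.0044), and had a log2 fold change of 0.04 in MMP2sh2 (−0.10 to 0.18, adjusted p = 0.66). C10orf11 rose by 0.82 in control (adjusted p = 4.5e-07) and by 0.59 in MMP2sh2 (adjusted p = 0.0023), and had a log2 fold change of −0.09 in MMP2sh1 (−0.52 to 0.33, adjusted p = 0.75).

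Between subconfluent cells at day −2 and overconfluent cells at day +2, ST8SIA1 and C10orf11 were called higher in all 3 lines and F2RL2 in control and MMP2sh2, beside 28.1%, 27.3% and 27.7% of all genes in control, MMP2sh1 and MMP2sh2. ST8SIA1 rose 6.94-fold in control, 4.48-fold in MMP2sh1 and 2.05-fold in MMP2sh2 (adjusted p = 3.2e-16, 2.5e-08 and 1.2e-06). C10orf11 rose 5.83-fold, 3.52-fold and 4.59-fold (adjusted p = 4.1e-15, 1.9e-05 and 8.5e-12). F2RL2 rose 1.32-fold in control (adjusted p = 1.3e-05) and 1.43-fold in MMP2sh2 (adjusted p = 6.3e-07). In MMP2sh1 the F2RL2 level at day +2 was within 0.21 of that at day −2 on the log2 scale in either direction (95% interval −0.21 to 0.21, adjusted p = 0.99).

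**Figure D3:**
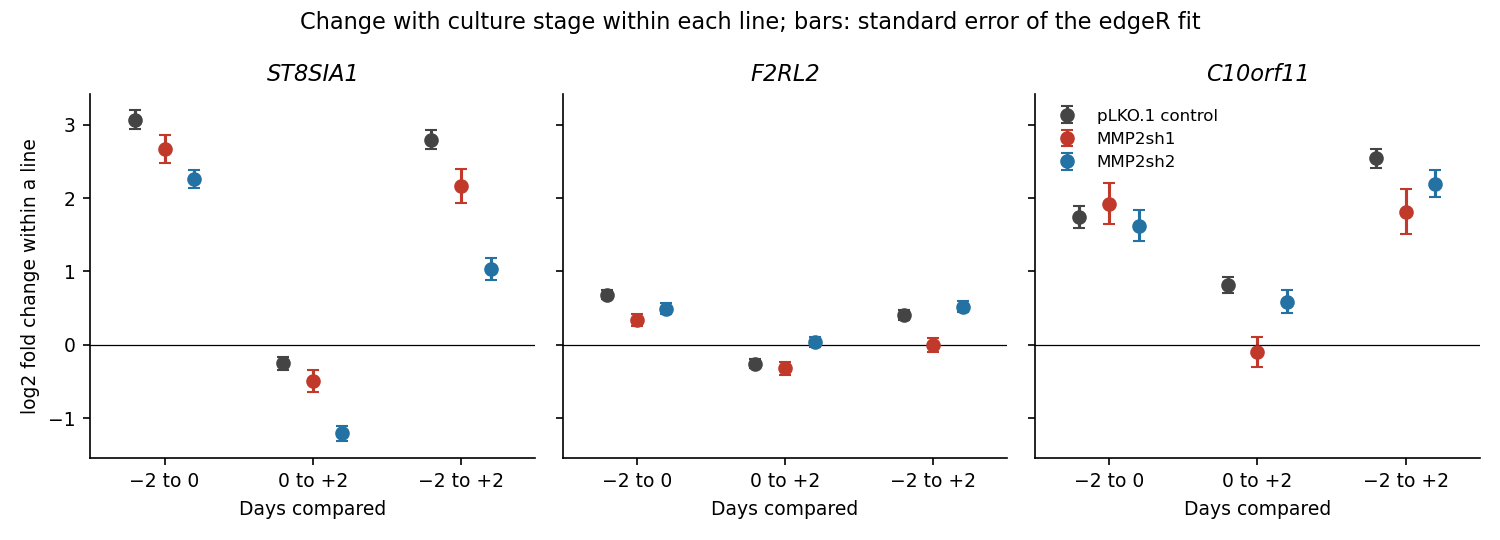
Log2 fold change between days (y axis) within each line for the 2 steps and the whole expansion (x axis), with the standard error of the edgeR fit. ST8SIA1 in MMP2sh2 had the smallest rise to confluence (2.26) and the deepest fall after it (−1.21) of the 3 lines.

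Whether the stage response of MMP2sh2 differed from that of control was tested as an interaction of line and day on 12 libraries, first over the whole expansion and, chosen after seeing the data, for each step. The background was 3.69% of all genes called for the step to day 0, 4.76% for the step to day +2 and 4.98% for the whole. ST8SIA1 differed in each, with a rise to confluence lower by 0.80 on the log2 scale (SE 0.18, adjusted p = 0.0069), a later change lower by 0.95 (SE 0.14, adjusted p = 7.7e-06) and a whole response lower by 1.76 (SE 0.19, adjusted p = 1.5e-07). Without control day −2 replicate 1 the difference in the step to day 0 was −0.67 (adjusted p = 0.051). The whole response was called with each of the 12 libraries left out. F2RL2 differed in the step to day +2 only, by 0.31 (SE 0.09, adjusted p = 0.048), a call lost when any of 9 of the 12 libraries was left out. C10orf11 was not called in any, with a whole difference of −0.35 (−0.79 to 0.10, adjusted p = 0.44). For MMP2sh1 the same whole difference, as a description, was −0.62 (SE 0.24) for ST8SIA1, −0.39 (SE 0.11) for F2RL2 and −0.72 (SE 0.30) for C10orf11.

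The genes whose log2 CPM was most like ST8SIA1 over the 27 libraries, out of 15135 with a mean of at least 1 CPM, were MEIS1 (Pearson r = 0.94), PRR16 (0.93), LPHN2 (0.93), ALDH7A1 (0.93) and RSPO3 (0.92). MEIS1 encodes a homeobox transcription factor and RSPO3 a secreted enhancer of Wnt signalling. For C10orf11 they included GLRB (0.93), ZNF793 (0.93), HMGN5 (0.93) and ALDH7A1 (0.93). GLRB encodes a glycine receptor subunit. Over the 18 libraries without MMP2sh1, these 9 correlations stayed between 0.90 and 0.95. For F2RL2 they were MAP2K4 (0.89), NSL1 (0.88), HIP1 (0.88), SFRP1 (0.87) and SRPK2 (0.87), which fell to 0.29 to 0.56 without MMP2sh1. Between the genes themselves, r was 0.86 for ST8SIA1 and C10orf11, 0.69 for ST8SIA1 and F2RL2 and 0.68 for F2RL2 and C10orf11, and without MMP2sh1, in which all 3 were chosen to be low, it was 0.79, 0.87 and 0.77 in the same order. The points share line and culture day, so these values describe the pattern over the 9 groups and carry no p-value.

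The other genes of ganglioside synthesis were called in both directions. Of 16 listed, 13 or 14 besides ST8SIA1 were tested in a comparison. The MMP2sh1 calls at days −2, 0 and +2 were 2, 2 and 1 lower and 1, 2 and 2 higher, and their median log2 fold changes were 0.03, 0.10 and −0.02. In MMP2sh2, 0, 1 and 1 were called lower and 1, 1 and 1 higher, with medians of −0.03, 0.04 and −0.07. The medians of all genes tested in these 6 comparisons lay between −0.0032 and 0.0025. The shares of all genes called lower were 6.14%, 8.58% and 7.11% in MMP2sh1 and 6.33%, 5.81% and 3.43% in MMP2sh2. The shares called higher were 5.42%, 8.26% and 7.68% in MMP2sh1 and 4.71%, 7.07% and 2.89% in MMP2sh2. Many calls on the listed genes and on neighbours were not stable: of 122 against control, 64 held in every alternative, 21 were lost in 1 to 3 of them and 37 in 4 or more. Those named here that were lost in 4 or more were ST6GALNAC4 (MMP2sh1 at day 0, MMP2sh2 at day −2), ST3GAL1, ST3GAL5, ASAH1, F2RL3, GNAI2 in MMP2sh2, PLCB2, PLAT in MMP2sh2, MC1R and VDAC2 in MMP2sh2. Others were PSAP and MITF in MMP2sh2 at day −2, MITF and KCNJ8 in MMP2sh2 at day 0, TFPI and PLCB1 in MMP2sh2 at day +2, and ARHGEF1, GNAI1 and KAT6B in MMP2sh1 at day −2.

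B4GALT5, which makes lactosylceramide, the precursor of GM3, was the most abundant of them in CPM and fell in MMP2sh1 at each day, by 0.25, 0.31 and 0.31 on the log2 scale (adjusted p = 0.0059, 6.8e-06 and 0.00016). It fell by 0.29 in MMP2sh2 at day +2 (adjusted p = 0.00029). B4GALNT1, which makes GM2 and GD2, fell in MMP2sh1 by 0.24 at day −2 (adjusted p = 0.017) and by 0.27 at day 0 (adjusted p = 0.0016). ST6GALNAC4, a sialyltransferase, rose at days −2 and 0 in MMP2sh1 (0.32 and 0.23, adjusted p = 0.0048 and 0.03) and in MMP2sh2 (0.25 and 0.27, adjusted p = 0.024 and 0.013), of which only the MMP2sh1 call at day −2 held in all 12 alternatives. ST3GAL5, which makes GM3, the substrate of GD3 synthase, had log2 fold changes of 0.38, 0.32 and 0.23 in MMP2sh1, of which the day 0 value was called (adjusted p = 0.048) but not in 7 of its 12 alternatives. ST3GAL1 and ST3GAL2, abundant sialyltransferases at 135 and 57.2 CPM on average, stayed between −0.15 and 0.11, the lowest value being a call for ST3GAL1 in MMP2sh2 at day 0 (adjusted p = 0.05) that was lost in 9 of its 12 alternatives. B4GALT6, a second lactosylceramide synthase, rose by 0.59 in MMP2sh1 at day +2 (adjusted p = 7.7e-06), and ST6GALNAC5, a sialyltransferase acting on gangliosides, rose at day +2 by 0.38 in MMP2sh1 and 0.49 in MMP2sh2 (adjusted p = 0.0014 and 9e-05).

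All 5 genes of sialic acid supply were tested in each comparison. None was called lower in either line, where 3.43% to 8.58% of all genes were, and nothing is read from this. GNE, the first enzyme of sialic acid synthesis, was higher in MMP2sh1 at day +2 (0.29, adjusted p = 0.0052), and NANS was higher in MMP2sh2 at day 0 (0.33, adjusted p = 0.0026). In these comparisons 7.68% and 7.07% of all genes were called higher. Of 12 genes of ganglioside breakdown, 10 were tested, and 0, 5 and 2 were called lower in MMP2sh1 at days −2, 0 and +2, beside 6.14%, 8.58% and 7.11% of all genes. In MMP2sh2 it was 0, 1 and 1, beside 6.33%, 5.81% and 3.43%. Higher calls were 1 in MMP2sh1, at day +2, and 2 in MMP2sh2, at day −2, beside 7.68% and 4.71% of all genes. The medians were 0.07, −0.14 and −0.02 in MMP2sh1 and 0.06, −0.07 and −0.05 in MMP2sh2. Those lower in MMP2sh1 at day 0 included GALC, GM2A, NEU1 and PSAP, named after their values were seen. GALC, which removes galactose from sphingolipids, fell by 0.28 and 0.30 in MMP2sh1 at days 0 and +2 (adjusted p = 0.00047 and 0.00071), and ASAH1, the acid ceramidase, by 0.19 and 0.22 in MMP2sh2 (adjusted p = 0.015 at both days). PSAP, the saposin precursor, was the most abundant gene of the list at 1110 CPM, with log2 fold changes from −0.14 in MMP2sh1 at day 0 to 0.17 in MMP2sh2 at day −2, both called (adjusted p = 0.0059 and 0.034). Within the ST8SIA family, ST8SIA2 reached at most 3.15 CPM, ST8SIA4, ST8SIA5 and ST8SIA6 stayed under 1 CPM and ST8SIA3 had no count. Only 2 of them passed the filter in each comparison against control, and neither was called, beside 6.32% to 16.8% of all genes called in either direction. The others could not be called.

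Among the protease-activated receptors, F2R, the PAR1 gene and the main thrombin receptor, fell with F2RL2 in MMP2sh1. Its log2 fold changes were −0.51, −0.41 and −0.30 at days −2, 0 and +2 (adjusted p = 7.1e-06, 1.4e-07 and 0.0037). In MMP2sh2 F2R was not called at days −2 and 0 (−0.11 and −0.08, adjusted p = 0.27 and 0.33) and was higher at day +2 (0.29, adjusted p = 0.0019). F2RL1, the PAR2 gene, had values from −0.14 to 0.13 and was not called against control in either line. From day −2 to day +2 it fell in control (−0.31, adjusted p = 9.3e-05) and MMP2sh1 (−0.34, adjusted p = 0.00096). F2RL3, the PAR4 gene, stayed under 1 CPM, and its call in MMP2sh1 at day +2 (1.80, adjusted p = 0.037) was lost in 8 of 11 alternatives. Per kilobase of annotated exon, control cells at day 0 held 17.1 CPM of F2RL2, 24.5 of F2R and 16.7 of F2RL1, whereas MMP2sh1 cells held 6.63 of F2RL2 and 18.4 of F2R. On the same scale ST8SIA1 was at 1.67 and C10orf11 at 1.56 in control at day 0.

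Of 16 genes for thrombin, receptor proteases and their regulators, 10 to 12 were tested. None was called lower in MMP2sh1 at days 0 and +2, where 3 and 5 were called higher, and 1 was called in each direction at day −2, with medians of 0.07, 0.08 and 0.15 at days −2, 0 and +2. In MMP2sh2, 1, 1 and 3 were called lower and 1, 3 and 2 higher. Of all genes tested, 6.14%, 8.58% and 7.11% were called lower in MMP2sh1 and 5.42%, 8.26% and 7.68% higher. In MMP2sh2 these shares were 6.33%, 5.81% and 3.43% lower and 4.71%, 7.07% and 2.89% higher. Whether the list differed from these shares was not tested. PLAU, which encodes urokinase, rose by 1.02 in MMP2sh1 at day +2 (adjusted p = 1.5e-13), from 87.1 to 176 CPM, and by 0.38 in MMP2sh2 (adjusted p = 2.2e-05). SERPINE2, an inhibitor of thrombin, rose by 0.41 in MMP2sh1 at day +2 (adjusted p = 9.8e-07) and fell by 0.27 and 0.28 in MMP2sh2 at days 0 and +2 (adjusted p = 0.00045 and 0.00027). TFPI, an inhibitor of the tissue factor pathway, rose by 0.47 and 0.33 in MMP2sh1 at those days (adjusted p = 7.5e-05 and 0.0014). In MMP2sh2 TFPI fell by 0.50 at day −2 (adjusted p = 0.00071) and rose by 0.23 at day +2 (adjusted p = 0.045). PROCR, the protein C receptor gene, rose by 0.31 and 0.26 in MMP2sh1 at days −2 and 0 (adjusted p = 0.0028 and 0.0094). F3, the tissue factor gene, rose by 0.55 and 0.50 in MMP2sh2 at days −2 and 0 (adjusted p = 0.0035 and 0.0019). PLAT, the tissue plasminogen activator gene, rose by 0.14 at day 0 and fell by 0.20 at day +2 in MMP2sh2 (adjusted p = 0.035 and 0.02), and rose by 0.35 in MMP2sh1 at day +2 (adjusted p = 3.9e-05).

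All 17 genes of G protein signalling downstream of these receptors were tested, and 4, 3 and 2 were called lower and 2 at each day higher in MMP2sh1. In MMP2sh2, 1, 3 and 1 were called lower and 0, 1 and 1 higher. Beside these, 6.14%, 8.58% and 7.11% of all genes were called lower in MMP2sh1 and 5.42%, 8.26% and 7.68% higher. In MMP2sh2 the shares were 6.33%, 5.81% and 3.43% lower and 4.71%, 7.07% and 2.89% higher. Whether the list differed from these shares was not tested. The 6 medians lay between −0.0196 and 0.0337. PLCB1, a phospholipase C that Gq activates, fell in MMP2sh1 by 0.45 and 0.46 at days −2 and 0 (adjusted p = 0.03 and 0.00068) and in MMP2sh2 by 0.42, 0.60 and 0.25 (adjusted p = 0.033, 7.3e-05 and 0.043). ARHGEF1, an exchange factor for RhoA, rose by 0.22 and 0.52 in MMP2sh1 at days −2 and +2 (adjusted p = 0.016 and 8.9e-08) and by 0.35 in MMP2sh2 at day +2 (adjusted p = 2e-04). GNAI1, an inhibitory G protein subunit, fell in MMP2sh1 by 0.24 and 0.43 at days −2 and +2 (adjusted p = 0.04 and 0.00076). PLCB2 rose by 0.25 at day −2 and fell by 0.26 at day +2 in MMP2sh1 (adjusted p = 0.029 and 0.033). The most abundant members, GNAI2, GNA12, GNAI3 and GNA13 (395, 275, 211 and 148 CPM on average), had values between −0.22 and 0.26 over both lines. GNA12 rose in MMP2sh1 at days 0 and +2 (0.21 and 0.26), GNAI2 fell at day 0 in MMP2sh1 (−0.21) and MMP2sh2 (−0.14), GNA13 fell in MMP2sh2 at day 0 (−0.22), and GNAI3 was not called.

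Of the 9 melanocyte markers, MITF and PMEL averaged over 1 CPM in the cells in which C10orf11 was measured. PMEL, a melanosome matrix gene, averaged 1.17 CPM and reached 2.08, MLANA reached 1.43, and OCA2 and SLC45A2 reached 0.633 and 0.658. TYR, TYRP1 and DCT, the pigment enzymes, stayed at or under 0.417 CPM in every library and SOX10 at or under 0.783, and the 9 markers summed to 13.3 to 19.4 CPM in control, 11.7 to 16.7 in MMP2sh1 and 10.9 to 19.7 in MMP2sh2. Most of that sum was MITF, the master regulator of melanocytes, which is also present in other cells (12.3 CPM on average). MITF fell in MMP2sh2 by 0.37 at day −2 and 0.53 at day +2 (adjusted p = 0.041 and 0.0072) and rose by 0.35 at day 0 (adjusted p = 0.018), and it fell by 0.42 in MMP2sh1 at day +2 (adjusted p = 0.025). Of 15 melanin and albinism genes, 8 to 10 besides C10orf11 were tested. Of these, 2, 0 and 1 were called lower in MMP2sh1 and 1, 0 and 1 in MMP2sh2. The shares of all genes called lower were 6.14%, 8.58% and 7.11% in MMP2sh1 and 6.33%, 5.81% and 3.43% in MMP2sh2. The list held 1 higher call (MITF), in MMP2sh2 at day 0, where 7.07% of all genes were called higher. MYO5A, RAB27A and MC1R, the other abundant members (50.3, 19.4 and 8.53 CPM), were called only in MMP2sh1 at day −2, for MYO5A (−0.32, adjusted p = 0.0033) and MC1R (−0.45, adjusted p = 0.044). The list medians were −0.27, −0.06 and −0.01 in MMP2sh1 and −0.16, −0.11 and 0.11 in MMP2sh2.

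**Figure D4:**
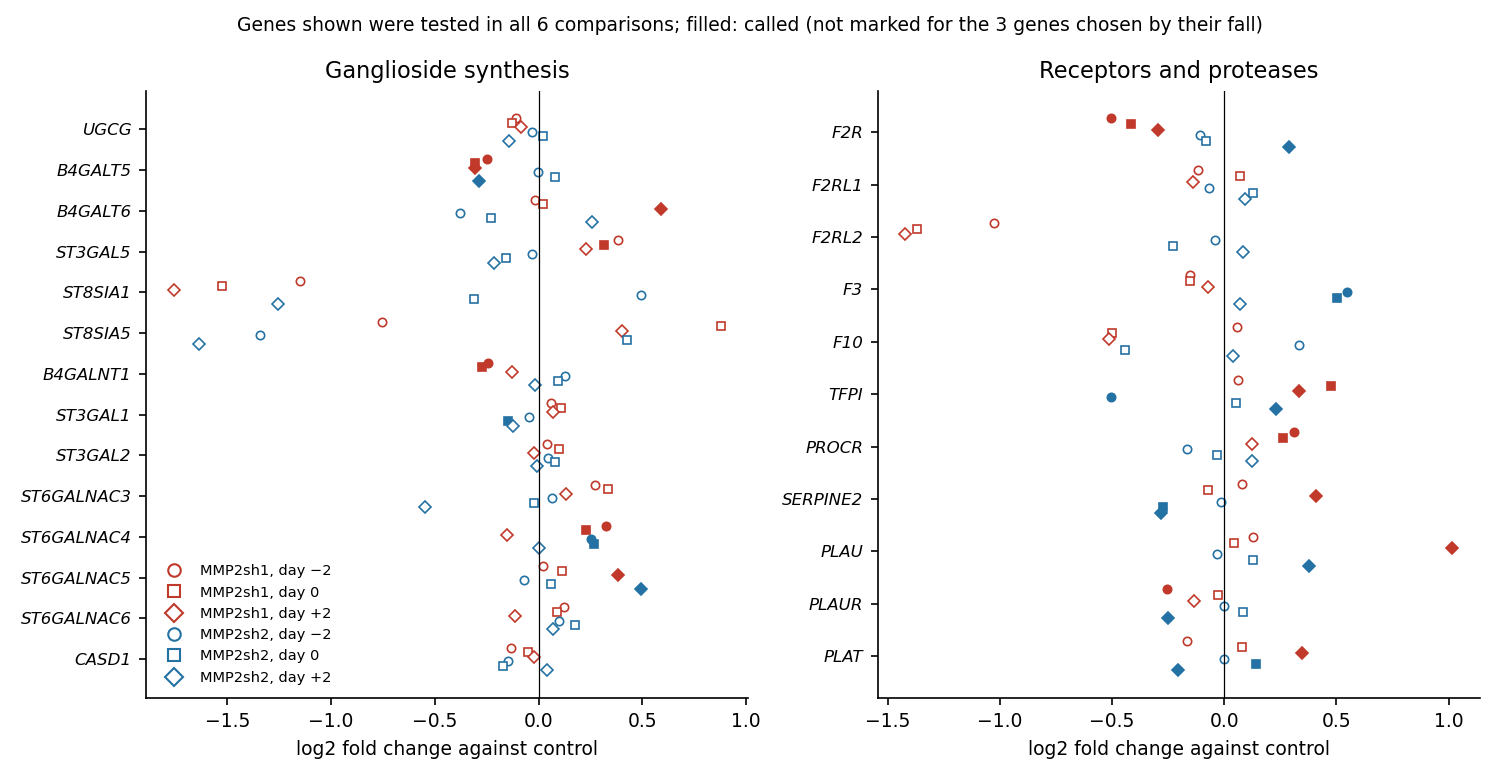
Log2 fold change against control (x axis) of the genes of ganglioside synthesis (left) and of the protease-activated receptors with proteases and regulators (right), where each gene shown was tested in all 6 comparisons, with shape for the day, colour for the line and filled points for calls. Calls are not marked for ST8SIA1 and F2RL2, which were chosen by their fall and lie at −1.03 or below in MMP2sh1, while the highest point is PLAU at 1.02 in MMP2sh1 at day +2.

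Neighbours were the annotated genes that overlap a member and the protein-coding genes with a start within 1 Mb. Near C10orf11, 5 were tested, all before its start, with 2, 4 and 3 lower calls in MMP2sh1 at days −2, 0 and +2, 0, 5 and 3 in MMP2sh2, and none higher. The shares of all genes called lower were 6.14%, 8.58% and 7.11% in MMP2sh1 and 6.33%, 5.81% and 3.43% in MMP2sh2, and whether neighbours of a gene move together more than this was not tested. ZNF503, which encodes a zinc finger repressor on the opposite strand, is the nearest. Its mean level was 29.0 ± 3.27, 54.7 ± 2.504 and 40.8 ± 1.12 CPM in control, 18.5 ± 2.36, 25.2 ± 0.278 and 18.7 ± 0.739 in MMP2sh1, and 29.8 ± 2.58, 34.1 ± 2.08 and 28.9 ± 3.16 in MMP2sh2 (SD, n = 3). ZNF503 fell in MMP2sh1 by 0.65, 1.12 and 1.13 on the log2 scale (adjusted p = 8.1e-05, 1.2e-14 and 8.3e-12) and in MMP2sh2 by 0.69 and 0.49 at days 0 and +2 (adjusted p = 1.2e-09 and 1.7e-05). At day −2 it was at 103% of control in MMP2sh2 (0.02, adjusted p = 0.92). Its start lies 29.9 kb from the annotated start of C10orf11, but 245.8 and 381 kb from the promoters that RefSeq lists.

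COMTD1, whose start lies at −195.6 kb from that of C10orf11, fell by 0.61 and 0.74 in MMP2sh1 at days 0 and +2 (adjusted p = 1.6e-08 and 8.9e-08) and by 0.32 and 0.28 in MMP2sh2 (adjusted p = 0.00073 and 0.0099). VDAC2, a mitochondrial channel gene, fell by 0.27 in MMP2sh1 at day +2 (adjusted p = 0.0016) and by 0.13 and 0.22 in MMP2sh2 at days 0 and +2 (adjusted p = 0.043 and 0.0097). KAT6B, a histone acetyltransferase gene, fell by 0.21 and 0.30 in MMP2sh1 at days −2 and 0 (adjusted p = 0.029 and 0.00026) and by 0.25 in MMP2sh2 at day 0 (adjusted p = 0.0024). Near F2RL2, 8 neighbours were tested. F2R, at −92.7 kb, was called as described above, and it was the neighbour called lower at each day in MMP2sh1. F2RL2 lies within IQGAP2, which is transcribed from the opposite strand. Strand was not used in the counting and reads on exons of both genes were discarded, so reads of such pairs cannot be assigned with certainty. IQGAP2 was low, at 1.26 to 2.83 CPM in control, and was not called in either line (log2 fold changes from −0.46 to 0.08). Near ST8SIA1, 10 or 11 neighbours were tested, and in MMP2sh1 0, 0 and 1 were called lower and 0, 2 and 2 higher. Of all genes, 6.14%, 8.58% and 7.11% were called lower in MMP2sh1 and 5.42%, 8.26% and 7.68% higher. KCNJ8, a potassium channel gene, fell in MMP2sh2 by 0.40 and 0.55 at days 0 and +2 (adjusted p = 0.037 and 0.0099). CMAS, which activates sialic acid and overlaps the annotated span of ST8SIA1 on the other strand, was not called in either line (−0.16 to 0.04).

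**Figure D5:**
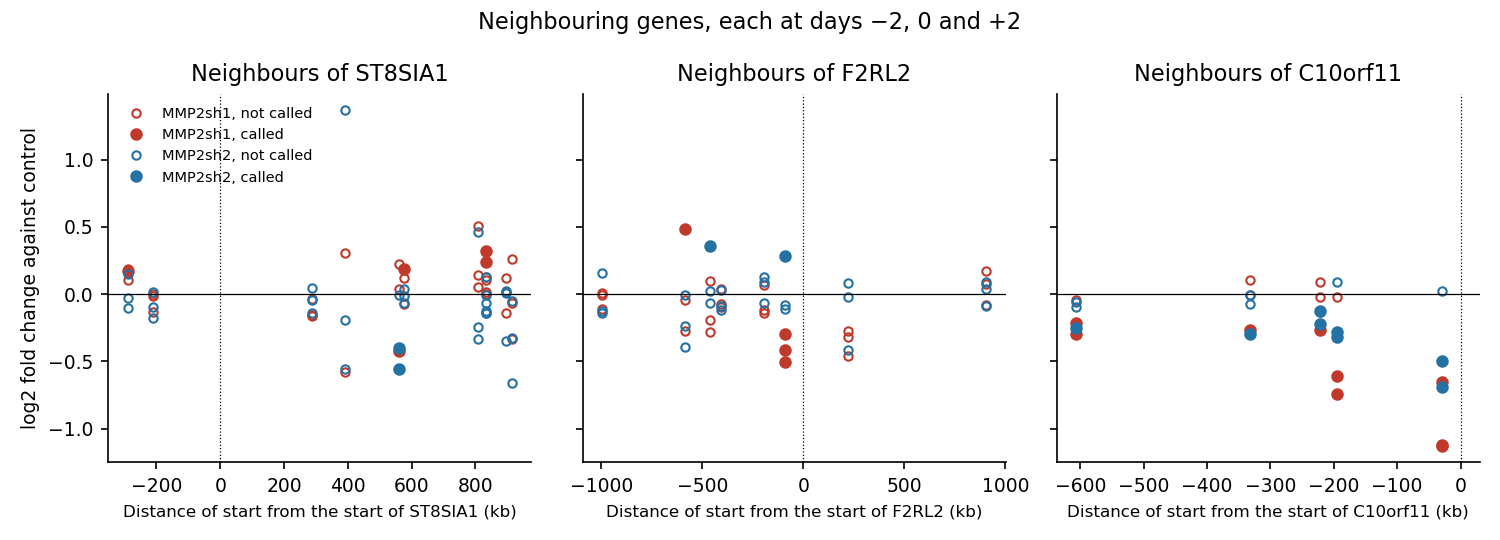
Log2 fold change against control (y axis) of genes near ST8SIA1, F2RL2 and C10orf11 by the distance of their start from the start of the named gene (x axis, kb, positive in the direction of transcription), with 1 point per line and day and filled points for calls. All calls near C10orf11 are below 0, the lowest being ZNF503 at −1.12 and −1.13 in MMP2sh1.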

How the data were processed

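Poly(A) RNA of 27 libraries was measured. According to the submitters’ notes and the study’s methods, Trim Galore 0.6.0 was used for trimming, STAR 2.7.3a for alignment (hg19) and HTSeq 2.0.0 for counting on exons, in union mode and without strand. The authors deposited 1 column of raw counts by gene symbol for each library, with no normalization. HTSeq summary lines, 16.8% to 19.1% of each total, name no gene and were left out of library sizes and tests.

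Levels are CPM with TMM factors. Only the libraries of a comparison entered its fit in edgeR 4.0.16 (R 4.3.3; filterByExpr, minimum count 10, minimum total 15; quasi-likelihood test; Benjamini-Hochberg adjustment over all genes tested), and a call required an adjusted p below 0.05. The SE is the log2 fold change divided by the square root of F. All 3 genes passed the filter in every comparison, with at least 29 counts in every library. Likeness used log2 CPM with a prior count of 2. The members, lists and tests were chosen with earlier results of these data known. Named list genes were the 4 most abundant of a list and up to 4 called at 2 or more days in a line, with others that were called in a single comparison named after their values were seen. The neighbours named were those called at 2 or more days in a line and those that overlap a member. Some genes that these rules select are not reported here.

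Sequences are from RefSeq (GRCh38.p14) and positions from GENCODE on GRCh37, which is newer than the symbols of the files. Simulated data were drawn from the fitted edgeR model, with 200 genes of mean level over 1 CPM changed 2-fold. The comparison of MMP2sh2 against control at day 0 called 176 of them and 8 other genes of 18640 tested. The interaction over the whole expansion called 167 and 16 others of 20012. Changes below 2-fold, such as those of ST8SIA1 and F2RL2 in MMP2sh2 at day 0, were not simulated. Alternatives were DESeq2 1.42.0, median-of-ratios scaling, no filter, at least 10 counts in every library, 1 fit of all 27 libraries, the replicate number as a block and each library left out. The replicates are described as independent, but the labels do not say that cultures were separate, so p-values measure the spread between these libraries. Pairs of replicates differed by more than counting noise (chi-square per degree of freedom 4.74 to 24.6), and intervals cover the fitted spread.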

Additional observations from a re-analysis of the deposited data

Results flagged for a closer look

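The stage response of ST8SIA1 differed between MMP2sh2 and control by the interaction test of edgeR. The log2 difference was −0.80 from day −2 to day 0, −0.95 from day 0 to day +2 and −1.76 over the whole expansion, with the level in MMP2sh2 above every control library at day −2 and below every control library at day +2. The stage response of F2RL2 differed by 0.31 from day 0 to day +2, where control fell by 0.26 and MMP2sh2 had a change of 0.04. The adjusted p of the F2RL2 difference was 0.048, and it ranged from 0.024 to 0.19 with each library left out. Both differences by step were tested after the data had been seen.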

How the results depend on the processing

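Of 66 member values, 65 were unchanged with DESeq2, with median-of-ratios scaling and without a filter. The same number held with a minimum of 10 counts in each library and with the replicate block, and 60 in 1 fit of all 27 libraries. In the comparisons that were tested, unchanged means the same direction and side of the threshold. Member values that contrast MMP2sh1 with another line have no call. For these it means the same direction and a shift below the SD of log2 CPM within groups. For MMP2sh2 against control at day −2, C10orf11 was called with DESeq2 (−0.66, adjusted p = 0.04) and in the fit of all 27 libraries (−0.66, adjusted p = 0.038), as was ST8SIA1 in the latter (0.50, adjusted p = 0.024). That fit lost ST8SIA1 in MMP2sh2 at day 0 (−0.30, adjusted p = 0.13) and in control from day 0 to day +2 (−0.27, adjusted p = 0.071). The F2RL2 difference in the step to day +2 was lost with median-of-ratios scaling (0.30, adjusted p = 0.055), in the fit of all 27 libraries (0.30, adjusted p = 0.087) and with the replicate block (0.30, adjusted p = 0.064). The F2RL2 change in MMP2sh1 over the whole expansion, near 0, became 0.0066 without a filter, 0.0212 with the strict filter and 0.0027 in the fit of all 27 libraries. The cause was not tested.

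With each library left out in turn, 443 of 468 member values were unchanged by the same rules. The log2 ranges of the others were −0.37 to −0.21 (ST8SIA1) and −0.26 to −0.20 (F2RL2) for MMP2sh2 at day 0, −0.31 to −0.15 for ST8SIA1 in control from day 0 to +2, −0.32 to 0.0783 for C10orf11 in MMP2sh1 from day 0 to +2, −0.062 to 0.0598 for F2RL2 in MMP2sh1 over the whole expansion and −0.0036 to 0.0916 for F2RL2 in MMP2sh2 from day 0 to +2. For the interactions of MMP2sh2 they were −0.92 to −0.67 (ST8SIA1) and −0.32 to 0.0021 (C10orf11) in the step to day 0, and 0.25 to 0.36 (F2RL2) in the step to day +2. For C10orf11 in MMP2sh1 at day −2 they were −1.85 to −1.22 against control and −1.19 to −0.56 against MMP2sh2, and −0.95 to −0.30 for its interaction.

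Replicate numbers did not pair the libraries. In 0 of 18 comparisons were all same-number correlations over 0.1 (range −0.0944 to 0.149), and the replicate block changed no other member call. Counts of genes called moved by more than 1.5 times in 25 of 156 leave-outs, at most from 2080 to 728 for MMP2sh2 at day −2 without control replicate 1. Of the 5 genes most like each member, 4, 0 and 3 were shared with Spearman correlation and 2, 0 and 0 without MMP2sh1, for ST8SIA1, F2RL2 and C10orf11. Counts as low as 29 limit ST8SIA1 and C10orf11 at day −2.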
